A study of Solanum lycopersicum with 6 samples.

Results

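The genes described are 5 tomato (Solanum lycopersicum) transcription factor genes of the TCP family, taken by gene ID from 34075 rows. They are BRC1a (Solyc03g119770) and BRC1b (Solyc06g069240), the BRANCHED1 pair, and LANCEOLATE (Solyc07g062680), TCP10 (Solyc07g053410) and TCP24 (Solyc08g048370), the LANCEOLATE-type genes. All 5 IDs had a row with a log fold change other than 0 in both deposited tables. RNA was sequenced from dormant axillary buds, the resting buds in leaf axils, of soil-grown greenhouse plants 25 days after germination, in 3 genotypes of the cultivar labelled MT with 2 libraries each. The genotypes were the wild type, written MT, a line that overexpresses the microRNA miR156, written miR156-OE, and a line written rSBP15. The last is titled rSBP15OE, with the same OE for overexpression as the miR156 line. It is known to carry a form of the SBP-box gene SBP15 that miR156 cannot target. Each library pooled about 20 buds from 4 to 5 plants. The promoters of the transgenes and the number of independent transgenic events are not given in the sources used here. Nothing says that the libraries of a genotype came from separate plantings, so p-values measure the spread between these pools, which may be technical.

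TCP proteins bind DNA and fall into classes with opposing effects on growth. BRANCHED1 proteins act inside axillary buds to hold them arrested, and in tomato silencing of BRC1b releases side shoots while BRC1a has the weaker effect. LANCEOLATE and its relatives belong to the CINCINNATA (CIN) clade, which drives leaf cells from division into differentiation, and are targets of the microRNA miR319. In tomato, LANCEOLATE made insensitive to miR319 turns the compound leaf into a simple one, and lowered activity of the clade prolongs leaf growth. Transcripts of SBP-box genes are the targets of miR156.

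For each gene and comparison the files give 1 log fold change with its p-value, and nothing per library. Neither labels nor headers name the log base, so values stay on the deposited log scale and are not turned into ratios, and sequencing depth and expression levels are unknown. The p-values were matched by a limma test (a linear model that moderates each gene's variance), from which the standard error (SE) behind each was recovered. Because both tables use the same MT libraries, the 2 standard errors of a gene also bound how far apart the 2 libraries of each genotype lay. Adjusted p-values are Benjamini-Hochberg values over all rows other than 0, and the threshold was 0.05. The targeted gene was checked first. Solyc10g078700.3, the ID taken here from general knowledge as that of SBP15, since the files pair it with no name, was at -0.51 (SE 0.0930) in miR156-OE and 0.52 (SE 0.117) in rSBP15 in the authors' deposited tables, with adjusted limma p-values of 0.279 and 0.114. In both comparisons its libraries could not overlap those of MT, which held for 39.2% of rows in miR156-OE and 63.7% in rSBP15. Reads of a transgene and of the native gene cannot be told apart. The 2 IDs listed as axillary meristem markers, Solyc07g066250 and Solyc11g069030, were other than 0 in both of the authors' deposited tables, at -0.12 and -0.20 in miR156-OE and -0.17 and -0.31 in rSBP15. Their adjusted limma p-values were 0.139 and 0.271 in miR156-OE and 0.0237 and 0.0526 in rSBP15, so that the first was lower in rSBP15, and their part in the results that follow was not tested.

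The BRANCHED1 pair was below MT in both lines, but neither gene passed the threshold in either. For BRC1a, the 2 MT libraries lay at most 0.117 apart. Relative to the MT mean, its miR156-OE libraries lay between -0.40 and -0.37 and between -0.28 and -0.25, and both rSBP15 libraries lay between -0.24 and -0.12. The groups did not overlap: every library of either line was under both MT libraries, and both miR156-OE libraries were under both rSBP15 libraries, the last by as little as 0.00963. In miR156-OE the authors' deposited table gave BRC1a a log fold change of -0.32 (SE 0.0744), with a 95% interval of -0.58 to -0.065, a limma p of 0.0309 and an adjusted p of 0.323. For rSBP15 the authors' deposited table gave -0.18 (SE 0.0585), with an interval of -0.38 to 0.021 and an adjusted limma p of 0.170. In these pooled buds, fewer cells that express a gene and less of its RNA per cell cannot be told apart, here and in every result that follows.

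BRC1b, the copy with the stronger known role in tomato branching, showed the wider spread. Its miR156-OE libraries both lay between -0.40 and -0.20 around the MT mean, with the MT libraries at most 0.197 apart. The rSBP15 libraries were split, with 1 between -0.59 and -0.56 and the other between -0.32 and -0.29, a gap of 0.233 to 0.306. Every library of both lines was again under both MT libraries, while the ranges of miR156-OE and rSBP15 leave it undecided whether those groups overlapped. The authors' deposited table for miR156-OE gave BRC1b a log fold change of -0.30 (SE 0.0987), with an interval of -0.64 to 0.044 and an adjusted limma p of 0.416. That for rSBP15, also the authors' deposited table, gave -0.44 (SE 0.153), with an interval of -0.96 to 0.085 and an adjusted limma p of 0.184. The direct difference between the lines, computed as rSBP15 minus miR156-OE, was 0.14 for BRC1a (95% interval -0.12 to 0.41) with an adjusted p of 0.438 in the limma test. For BRC1b it was -0.14 (-0.64 to 0.35), with an adjusted p of 0.704 in the limma test. The mean log fold change of the pair was -0.31 in miR156-OE and -0.31 in rSBP15, over 2 genes that share the MT libraries between the comparisons.

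**Figure D1:**
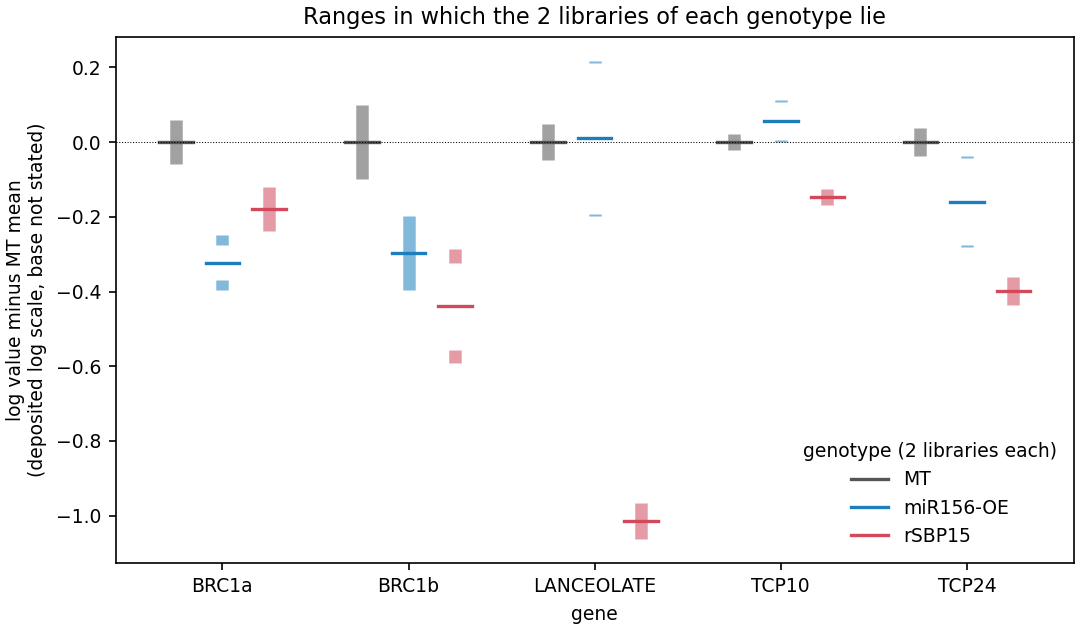
For each of the 5 genes (x axis), thick bars show the ranges in which the lower and the upper library of a genotype must lie, on the deposited log scale minus the MT mean (y axis), and thin lines show genotype means; where the 2 ranges touch they form 1 bar. LANCEOLATE in rSBP15 sits between -1.06 and -0.97, far under the MT bar, while its 2 miR156-OE libraries lie on opposite sides of MT.

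LANCEOLATE fell in rSBP15 and was the 1 member of 5 to pass the threshold there, against 5.58% of all 25329 rows tested and 2.94% that passed as lower. The MT libraries lay at most 0.0965 apart, and both rSBP15 libraries lay between -1.06 and -0.97 relative to the MT mean. The groups were separated by at least 0.946. The authors' deposited table gave a log fold change of -1.01 (SE 0.0483), with a 95% interval of -1.18 to -0.85, a limma p of 8.00e-04 and an adjusted p of 0.0372. Only 0.912% of the rows had a log fold change this low or lower, and of the 744 rows that passed as lower, 93 reached it. The call depended on the form of the limma test. Over all rows of the table, those at 0 included, the adjusted p was 0.0500092, and without variance moderation it was 0.0984. With the moderation refitted without rows at 0 it was 0.0201, in a test that 14.7% of all rows passed. With all 6 libraries fitted together it was 0.0389 at the largest and 0.0257 at the smallest residual variance.

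In miR156-OE, LANCEOLATE had a mean next to that of MT and the libraries of the line disagreed. The deposited log fold change was 0.010 in the authors' table, with a recovered SE of 0.208 and an adjusted limma p of 0.989. Since the MT libraries lay so close together, the spread had to come from the miR156-OE pair: 1 library lay 0.212 to 0.218 above the MT mean and the other lay between -0.20 and -0.19. The 2 miR156-OE libraries therefore stood 0.404 to 0.416 apart on either side of MT, and the 95% interval of the change ran from -0.71 to 0.73. The ratio of the recovered SEs, miR156-OE over rSBP15, was 4.31 for LANCEOLATE, a value reached by 2.95% of the 24592 rows other than 0 in both tables, whose median was 1.16.

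Set against each other directly, rSBP15 was below miR156-OE by a LANCEOLATE difference of -1.02 (SE at most 0.213, 95% interval -1.60 to -0.45), with a limma p of 0.0114 and an adjusted p of 0.132. Both rSBP15 libraries were at least 0.768 under the lower miR156-OE library. In this comparison 0% of the 25255 rows passed at the largest variance the tables allow, while 22% had an unadjusted p under 0.05. When all 6 libraries were fitted together the adjusted limma p was 0.0327 at the largest and 0.0218 at the smallest residual variance, fits in which 14.9% and 23.9% of all rows passed. The LANCEOLATE difference between the lines thus passed in both 6-library fits. It did not pass in the main test, at the mean of both variances (adjusted p 0.0505) or without moderation (0.337). The 6-library fits take 1 variance for all genotypes. The library gap, however, was 0.404 to 0.416 in miR156-OE and at most 0.0965 in MT and in rSBP15. The mean of both variances is under the smallest that these gaps allow, so that setting understates the spread here.

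TCP24, a CIN relative of LANCEOLATE, was also under MT in rSBP15, where the authors' deposited table gave -0.40 (SE 0.0375, 95% interval -0.53 to -0.27), with a limma p of 0.00395 and an adjusted p of 0.0561. Its rSBP15 libraries both lay between -0.44 and -0.36 and its MT libraries at most 0.0749 apart, so that the groups were separated by at least 0.345. With the moderation refitted without rows at 0 its adjusted limma p was 0.0290, under the threshold, in a test that 14.7% of all rows passed. In miR156-OE the libraries were split as for LANCEOLATE, with 1 at -0.28 and the other between -0.044 and -0.038, a gap of 0.232 to 0.243. The authors' deposited table gave a mean of -0.16 (SE 0.122), with an interval of -0.58 to 0.26 and an adjusted limma p of 0.676. Both miR156-OE libraries were under both MT libraries, by as little as 0.00616.

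TCP10, the third CIN gene, had the smallest standard error of the 5 genes in both tables. Its rSBP15 libraries lay between -0.17 and -0.13 and its MT libraries at most 0.0418 apart, and the groups did not overlap. The authors' deposited table gave -0.15 (SE 0.0209, 95% interval -0.22 to -0.075), with a limma p of 0.0103 and an adjusted p of 0.0745. In miR156-OE 1 library lay 0.108 to 0.112 above the MT mean and the other within 0.00497 of it, and the authors' deposited table gave 0.056 (SE 0.0556), with an adjusted limma p of 0.724. The difference of rSBP15 from miR156-OE was -0.20 (95% interval -0.38 to -0.025) for TCP10, with an adjusted p of 0.197 in the limma test, and 0.0424 when all 6 libraries were fitted at the smallest variance. For TCP24 it was -0.24 (-0.59 to 0.11), with an adjusted p of 0.344 in the limma test. SE ratios of 3.25 for TCP24 and 2.66 for TCP10 were reached by 5.31% and 8.02% of rows. Those of the BRANCHED1 pair, 1.27 for BRC1a and 0.646 for BRC1b, were reached by 43.3% and 86.7%, and the SE was larger in the miR156-OE table for 64.9% of all rows, so a wider miR156-OE spread was not restricted to the LANCEOLATE-type genes. Its part in the miR156-OE results was not tested.

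**Figure D2:**
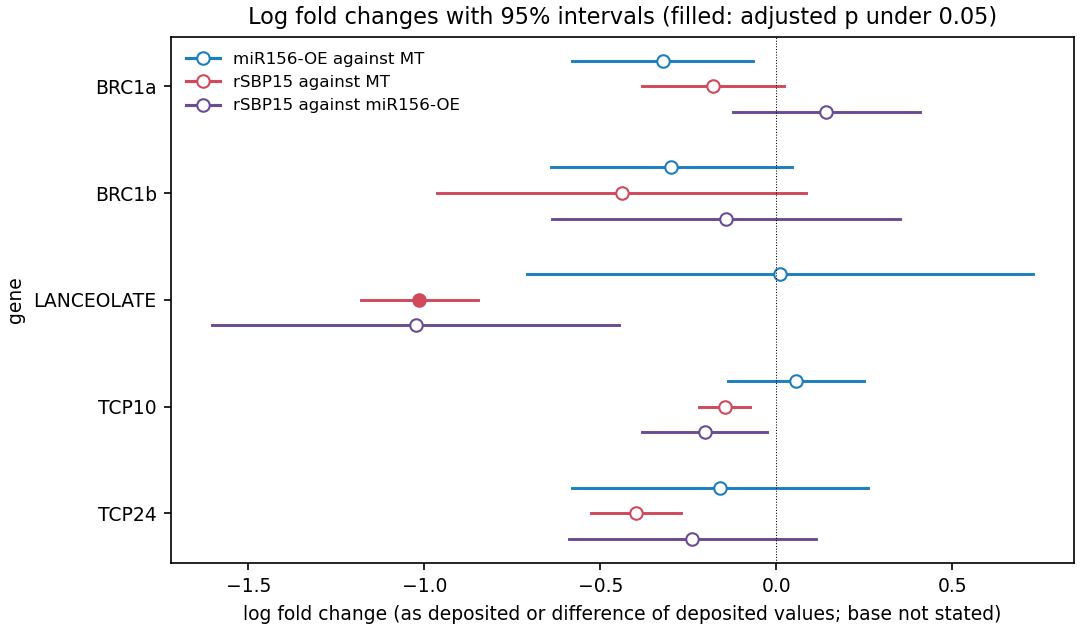
Log fold changes (x axis, deposited scale) of the 5 genes (y axis) with 95% intervals from the moderated test, in miR156-OE against MT, rSBP15 against MT and rSBP15 against miR156-OE; filled points have an adjusted p under 0.05. The 1 filled point is LANCEOLATE in rSBP15 against MT, at -1.01.

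Side by side, the BRANCHED1 pair held the lowest log fold changes of the 5 genes in miR156-OE and LANCEOLATE the lowest in rSBP15. In miR156-OE the order ran from BRC1a and BRC1b through TCP24 and LANCEOLATE to TCP10, and no neighbours in it differed by more than the sum of their standard errors. The LANCEOLATE-type genes had a mean log fold change of -0.031 there, with 1 of 3 below 0, against 50.7% of all rows. In rSBP15 the order was LANCEOLATE, BRC1b, TCP24, BRC1a and TCP10. LANCEOLATE was below BRC1b by 0.575, against summed standard errors of 0.201, and TCP24 was below BRC1a by 0.218, against 0.0960. The differences of TCP24 from BRC1b and of TCP10 from BRC1a were smaller than their summed standard errors. A difference above that sum is no test: the 95% intervals of LANCEOLATE (-1.18 to -0.85) and BRC1b (-0.96 to 0.085) overlapped. Those of TCP24 (-0.53 to -0.27) and BRC1a (-0.38 to 0.021) overlapped as well. All 3 LANCEOLATE-type genes were below 0 in rSBP15, against 49.5% of all rows. Their mean was -0.52 and their median -0.40, with LANCEOLATE at -1.01 and TCP10 at -0.15. A change of at least the size of that of TCP10 was found in 42.5% of rows. In the difference of rSBP15 from miR156-OE the LANCEOLATE-type genes ranged from -1.02 to -0.20 and the BRANCHED1 pair from -0.14 to 0.14. These are descriptions of 5 genes in shared libraries, with no test over genes.

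In miR156-OE 0 of the 5 genes passed the adjusted threshold in the limma test, against 0.0201% of 24920 rows, and 1 had an unadjusted p under 0.05, against 13.2%. In rSBP15 1 passed and 3 had an unadjusted p under 0.05, against 33.3% of rows. The libraries of the line and MT could not overlap for 3 of 5 genes in miR156-OE, against 39.2% of rows, and for 5 of 5 in rSBP15, against 63.7%, all 5 of them lower, against 30.8% of rows apart and lower. Between the lines the libraries could not overlap for 4 of 5, against 52.1%. Both lines were below MT for 3 of the 5 genes (BRC1a, BRC1b and TCP24), against 29% of rows below 0 in both tables. The 5 genes were chosen with earlier results of these data known, so these counts are no test.

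**Figure D3:**
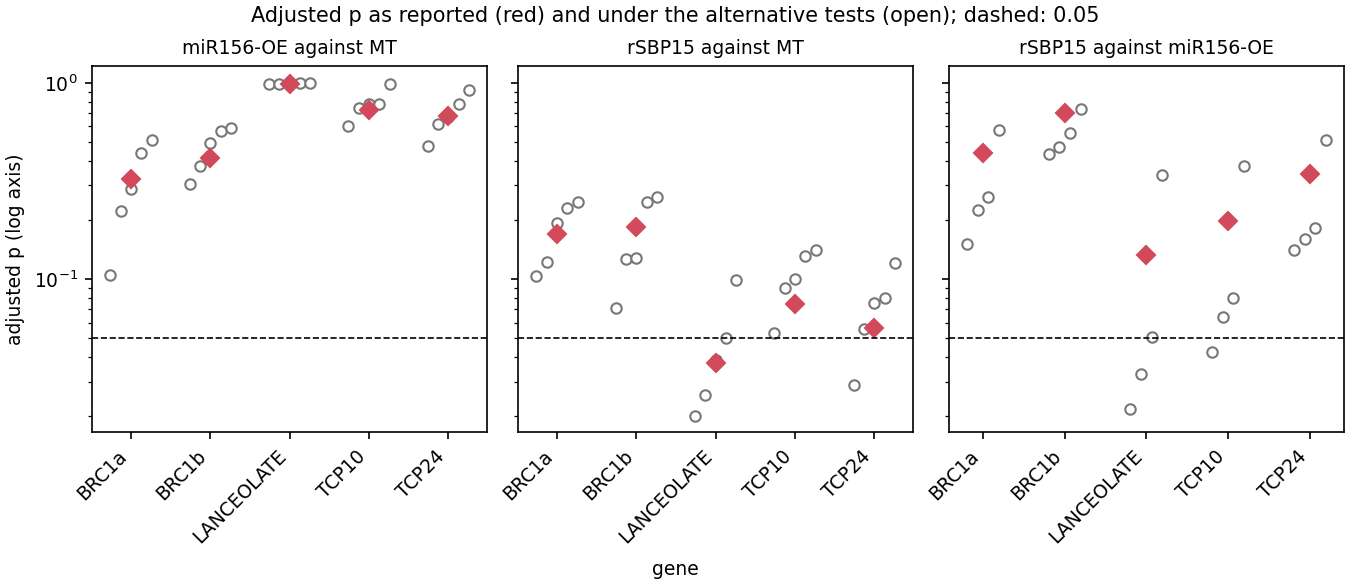
Adjusted p (y axis, log scale) of each gene (x axis) in the 3 comparisons, as reported (red) and under the 5 alternative tests of a line against MT or the 4 of the lines against each other (open circles), with 0.05 dashed. LANCEOLATE in rSBP15 against MT ranges from 0.0201 to 0.0984 over the alternatives, and BRC1a and BRC1b stay above the line throughout.

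**Figure D4:**
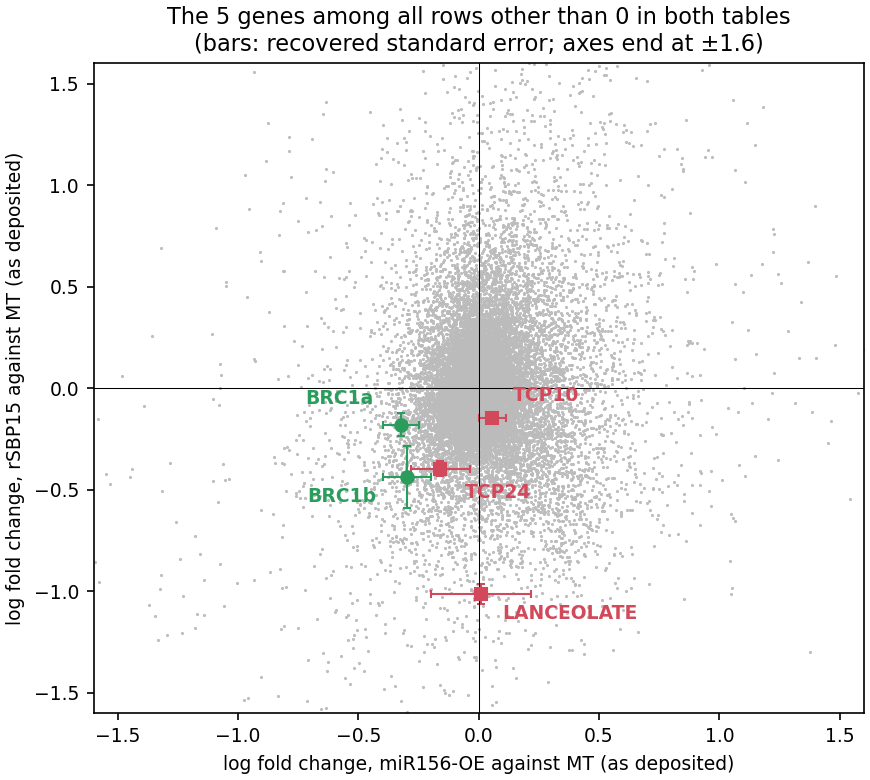
Each grey point is 1 of the rows other than 0 in both tables, with its log fold change in miR156-OE (x axis) and rSBP15 (y axis) against MT; coloured circles are the BRANCHED1 pair, squares the LANCEOLATE-type genes, and bars the recovered standard errors. The axes end at 1.6 either side of 0, which leaves 185 rows out of view, and LANCEOLATE lies on the vertical zero line at -1.01.

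In the plane of both log fold changes rows crowd near 0, with median sizes of 0.0596 in miR156-OE and 0.109 in rSBP15. A gene with larger changes thus has fewer rows near it. Within a distance of 0.05 lay 11 rows for LANCEOLATE, 27 for BRC1a, 27 for BRC1b and 70 for TCP24, and 418 for TCP10, of 24592. This distance is below the SE of each of the 5 genes in miR156-OE, so the counts describe the deposited values alone. The row nearest to BRC1a was Solyc03g114175.1, at -0.31 in miR156-OE and -0.18 in rSBP15 in the authors' deposited tables, and that nearest to BRC1b was Solyc01g058030.2, at -0.29 and -0.44 in the same deposited tables. Likeness here is over 2 log fold changes that share the MT libraries. Of 231 rows other than 0 in both tables as low as LANCEOLATE in rSBP15, 28 were within 0.05 of 0 in miR156-OE. The rows beside the genes in ID order, 5 on each side, were looked at as well, after values were seen. Those around LANCEOLATE did not come near its value in rSBP15: the 9 other than 0 ranged from -0.14 to 0.18. Of these 9, 1 passed the adjusted threshold, against 5.58% of all rows. Around the other genes some rows were as low as or lower than the gene in rSBP15, with lowest values of -0.33 beside BRC1a, -0.59 beside BRC1b, -0.51 beside TCP10 and -0.41 beside TCP24, where 2 rows were other than 0. In miR156-OE the lowest values were -0.20 beside BRC1a and -0.22 beside BRC1b, above both genes, -0.086 beside LANCEOLATE, -0.17 beside TCP10 and -0.11 beside TCP24.

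Genes of the surrounding pathways were then read from 2 lists of IDs, whose roles come from general knowledge of tomato genes, since the files name none of them. Both lists were chosen with earlier results of these data known. Their counts and medians beside those of all rows are therefore descriptions and no test of enrichment. The bud outgrowth list, of IDs known for strigolactone synthesis and perception, axillary meristem initiation, abscisic acid synthesis and SELF-PRUNING, had 9 of 11 IDs other than 0. In miR156-OE 7 of these were below and 2 above 0, against 50.7% of all rows below 0. There 0 passed the adjusted threshold in the limma test, against 0.0201% of all rows. In rSBP15 3 were below and 6 above 0, against 49.5% of rows below 0, with 2 past the threshold, both lower, against 2.94% of rows that passed as lower. The medians were -0.12 and 0.092, beside -0.00059 and 0.00053 over all rows. Its smallest adjusted limma p was that of Solyc07g066250.1 in rSBP15, 0.0237, where the authors' deposited table gave -0.17 (SE 0.00311). The other ID that passed, Solyc07g062840.3, had a larger change in rSBP15, -1.13 (SE 0.0398), with an adjusted limma p of 0.0314. In miR156-OE it was at -0.55 (SE 0.0304), with an adjusted limma p of 0.157.

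The compound leaf list, of IDs known for KNOX and other leaf patterning factors, APETALA1/FRUITFULL-type MADS genes and gibberellin synthesis and response, had all 13 IDs other than 0. It too was chosen with earlier results known, so its counts are no test. In miR156-OE 12 of 13 were below 0, against 50.7% of all rows. There 0 passed the adjusted threshold in the limma test, against 0.0201% of all rows. In rSBP15 8 were below and 5 above 0, against 49.5% of rows below 0, and 3 passed, all lower, against 2.94% of rows that passed as lower. The medians were -0.29 and -0.26, with sizes of 0.29 and 0.48 beside 0.0596 and 0.109 over all rows. Its smallest adjusted limma p was that of Solyc05g009380.4 in rSBP15, 0.0313, where the authors' deposited table gave -0.59 (SE 0.0202).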

How the data were processed

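Per the labels' protocols, RNA was extracted with TRIzol, treated with DNase, selected for poly(A) and made into stranded TruSeq libraries. The submitters' processing notes name HISAT2 and StringTie. Versions, genome build, filters and the test are not given in the sources used here. The authors deposited 1 table per line, with the log fold change and p-value against MT, per the file headers. The tables hold 0 columns of per-sample values. Samples were grouped by title.

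The p-values match limma fits, with no pairing, of 2 libraries of a line and 2 of MT: the prior degrees of freedom that fitted rows detected in 1 library, 0.347 and 0.360, were those limma 3.58.1 (R 4.3.3) estimated from all 34075 recovered variances. MT was taken as shared because all 402 equal log fold changes were below 0. The squared SE of a comparison is the sum, over its 2 genotypes, of the squared distance of a library from its genotype mean, which bounds the gaps. The difference of the lines used the sum of both variances, the largest possible, with limma moderation over 25255 rows. The recovery was tested on simulated data. Alternatives were adjustment over all rows, refitted or no moderation, a mean variance and a 6-library fit. Text names all 5 genes, the target check, the row nearest each BRANCHED1 gene, the smallest adjusted p of each list and the other ID of the bud outgrowth list that passed. Members and lists were chosen with earlier results of these data known. Rows beside the genes in ID order, and that other ID, were added after values were seen: Solyc07g062840.3. The RefSeq gene table (assembly SLM_r2.1) listed 5 of 5 names and 0 of the IDs; no coordinates or sequences are given.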

Additional observations from a re-analysis of the deposited data

How the results depend on the processing

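Each alternative changed the test and not the log fold change. Over 15 member results and 70 alternative tests, 64 left the adjusted limma p on the same side of 0.05 and 6 did not. For LANCEOLATE in rSBP15 against MT, 0.0372 as reported, it was 0.0500092 with adjustment over all rows and 0.0984 with no moderation (0.0201 to 0.0984 over the 5 alternatives). For LANCEOLATE between the lines, reported at 0.132, the 6-library fit gave 0.0327 and 0.0218 at the largest and smallest residual variance (0.0218 to 0.337 over the 4 alternatives). TCP10 in the same comparison, reported at 0.197, was at 0.0424 with 6 libraries and the smallest variance. The 6-library fits take 1 variance for all genotypes. The miR156-OE libraries of LANCEOLATE and TCP10 lay further apart than those of MT and rSBP15. For both genes the mean variance was under the smallest that the library gaps allow between the lines. TCP24 in rSBP15 against MT was at 0.0290 with the moderation refitted without rows at 0, against 0.0561. The lowest adjusted p of a BRANCHED1 gene in any alternative was 0.0712, that of BRC1b in rSBP15 against MT with 6 libraries and the smallest variance. The members under 0.05 in rSBP15 against MT were 1 as reported, against 5.58% of all rows. They numbered 0 with adjustment over all rows, 0 with no moderation and 0 at a threshold of 0.01, with no share of rows computed. With the moderation refitted they numbered 2, against 14.7% of rows, and 3 had an unadjusted limma p under 0.05, against 33.3%. In rSBP15 against miR156-OE they numbered 0 as reported, against 0% of rows. The 6-library fits gave 1 at the largest and 2 at the smallest variance, against 14.9% and 23.9% of rows. Unadjusted, 2 had a limma p under 0.05 there, against 22%. In miR156-OE against MT 0 passed as reported, against 0.0201% of rows, and 1 had an unadjusted limma p under 0.05, against 13.2%. Adjustment over all rows counts more tests. Dropping moderation leaves fewer degrees of freedom and puts each gene's own variance in place of the moderated one. The cause of each change of call was not tested. No paired analysis was possible because single libraries have no deposited values, and no replicate could be left out. Depth is unknown and limits on low levels cannot be set.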
